A study of Mus musculus with 36 samples.

Results

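The comparison set 2 ChrRNA-seq libraries of the SMCHD1 Y353C line against 3 of its parental line, Halo-SMCHD1, after 7 days of differentiation with Xist induced. These 5 samples are all those of both lines at day 7 among the 36 samples of the series, and 249 X-linked genes were measured in each of them. ChrRNA-seq sequences the RNA bound to chromatin and so follows transcription rather than stored mRNA. Both lines are interspecific XX mESCs, female mouse embryonic stem cells with a Cast and a 129S X chromosome, in which the Xist promoter on the 129S allele was replaced by a TetOn promoter. Doxycycline (dox) switches on Xist from the 129S chromosome, which becomes the inactive X (Xi), while the Cast chromosome remains the active X (Xa). In Halo-SMCHD1 a Halo tag was added to endogenous SMCHD1, and the cells also carry an eGFP-CIZ1 transgene and rtTA, the transactivator that dox activates. The Y353C line was made from these cells, and in it the tyrosine Y353 of the tagged protein was changed to cysteine (Y353C) on both alleles by CRISPR/Cas9. Each line is 1 clone, so line and clone cannot be told apart, and replicates are independent repeats with that clone. Day 7 cells were grown as a monolayer without feeders and without LIF, in 1 µg/ml dox. The same lines were sequenced before induction and after 24 h with dox, 1 library each, and Halo-SMCHD1 also at day 5, with 2 libraries. The E147A line, also made from Halo-SMCHD1, which carries another substitution in the same domain of the protein, was compared through its 2 libraries at day 7. The limma fit used 18 libraries, which besides these lines at days 5 and 7 came from the G137E line, with a further ATPase domain substitution (2 at day 5 and 3 at day 7), and from SMCHD1 KO and LRIF1 KO lines at day 7 (2 each). These groups enter the pooled spread behind every adjusted p. G137E and LRIF1 KO were made from Halo-SMCHD1. For SMCHD1 KO the study names as matched parental line iXist-ChrX, the untagged line from which Halo-SMCHD1 was made.

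SMCHD1 is a non-canonical SMC family protein with a hinge domain and an N-terminal GHKL ATPase domain. It accumulates on the Xi, where it is needed to keep many genes silent and for the methylation of many CpG islands. Y353C is a substitution in the ATPase domain that was found in facioscapulohumeral dystrophy type 2 and lowers ATP hydrolysis. A gene silenced on the Xi gives few reads from the 129S allele, so the fraction Xi/(Xi+Xa) falls from near 0.5 before induction towards 0. A higher fraction in bulk cells can come from more transcription of the Xi in each cell, from more cells that have not silenced it, or from less transcription of the Xa, and these cannot be told apart here. The files hold fractions of X-linked genes only, so the state of differentiation could not be checked with marker genes.

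The codon that Y353C changes and the guide designed for that edit can be placed on the reference sequence. In the reference Smchd1 coding sequence (GENCODE vM21, mm10), the Y353 codon is TAT, for tyrosine, in exon 9 on the minus strand of chromosome 17, at chr17:71441948-71441950. The stretch below gives the 30 coding bases on either side of the codon, which is in capitals. The stretch spans 2 exons and the mutated sequence is not shown. The guide matches the opposite strand over codons 367 to 374 of the same exon, at chr17:71441885-71441907, and its PAM is in capitals.
Smchd1 Y353 codon: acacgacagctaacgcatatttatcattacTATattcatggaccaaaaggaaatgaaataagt
SMCHD1_Y353 guide: aatattgttgaaaggtccaaTGG

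Most X-linked genes had a higher Xi/(Xi+Xa) in Y353C cells than in Halo-SMCHD1 cells at day 7. The mean fraction was higher in Y353C for 201 of the 249 genes, lower for 44 and equal for 4, with a median difference of 0.0181, or 0.012 without Halo-SMCHD1 replicate 1. The median over genes was 0.0513 and 0.0571 in the Y353C libraries, and 0.0198, 0.0372 and 0.0426 in Halo-SMCHD1 replicates 1 to 3. Both Y353C medians therefore lay above all 3 Halo-SMCHD1 medians, and Halo-SMCHD1 replicate 3 lay closest to them. The mean of library medians was 0.0542 ± 0.00414 (SD, n = 2) in Y353C and 0.0332 ± 0.0119 (SD, n = 3) in Halo-SMCHD1. The two-sided exact permutation test over libraries gave p = 0.2, the smallest value that 2 against 3 libraries allow. Library means over genes followed the same order, with 0.0912 and 0.0952 in Y353C and 0.0625, 0.0723 and 0.0809 in Halo-SMCHD1 (exact permutation test, p = 0.2).

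**Figure D1:**
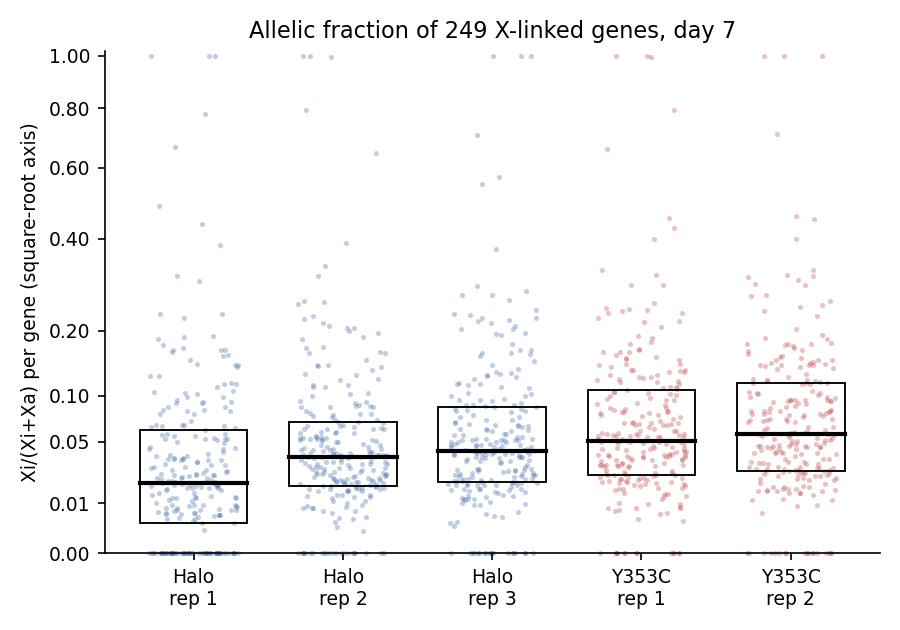
Xi/(Xi+Xa) of each of the 249 genes (points, square-root axis) in the 3 Halo-SMCHD1 and 2 Y353C libraries at day 7, with the median as a thick line and the quartiles as a box. The Y353C medians of 0.0513 and 0.0571 lie above the Halo-SMCHD1 medians of 0.0198, 0.0372 and 0.0426.

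The Halo-SMCHD1 libraries also differed among themselves by nearly as much as the lines did. The mean fraction was 0.0213 higher in Y353C than in Halo-SMCHD1, while Halo-SMCHD1 replicate 3 exceeded replicate 1 of the same line by 0.0184, with 186 genes higher and 48 lower. The Y353C libraries differed from each other by 0.00403. Against Halo-SMCHD1 replicate 3 alone the mean difference was 0.0103 for Y353C replicate 1 and 0.0143 for replicate 2. Against replicate 1 it was 0.0287 and 0.0328. Genes listed at exactly 0 numbered 61, 22 and 19 in Halo-SMCHD1 replicates 1 to 3, and 14 and 18 in Y353C. More genes exceeded a fraction of 0.1 in Y353C, with 68 and 72 against 39, 42 and 51 in Halo-SMCHD1. Above 0.2 the lines overlapped, with 23 and 22 genes in Y353C against 13, 17 and 23 in Halo-SMCHD1. The read counts behind the fractions are unknown, so depth was not compared between libraries.

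In the gene-by-gene test, limma on log2 odds with a pseudocount of 0.01, 8 of the 249 genes (3.21%) had an adjusted p under 0.05. All 8 were higher in Y353C, and no gene was called lower (0%). At an unadjusted p under 0.05 there were 51 genes higher and 0 lower. The log2 odds scale compares the odds of an Xi read against an Xa read, and the median difference over all 249 genes was 0.52 on this scale. The 8 genes were Spin4, Chst7, Flna, Kif4, Enox2, Mtcp1, Ercc6l and Emd. Library by library, none of the 8 showed any overlap between lines.

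Flna encodes filamin A, which crosslinks actin filaments. Its fraction was 0.0964 and 0.082 in Y353C, and 0.0215, 0.0234 and 0.0239 in Halo-SMCHD1. The Halo-SMCHD1 values were tightly grouped, and the log2 odds difference was 1.69 ± 0.30 (SE; limma, adjusted p = 0.00953). Emd, which encodes emerin of the inner nuclear membrane, had the highest fraction of the 8 genes in Y353C, at 0.159 and 0.155. In Halo-SMCHD1 it was at 0.0247, 0 and 0.0455, and the difference was 2.85 ± 0.65 on the log2 odds scale (limma, adjusted p = 0.0305). Flna and Emd are neighbours transcribed away from each other, and their start sites lie at positions 74246534 and 74254687 of the X chromosome.

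Kif4, a chromokinesin of mitotic chromosomes, was at 0.0688 and 0.0941 in Y353C, and at 0.022, 0.0226 and 0.0276 in Halo-SMCHD1. Its log2 odds difference was 1.50 ± 0.28 (SE; limma, adjusted p = 0.00969). Ercc6l, a DNA translocase found on ultrafine anaphase bridges, was at 0.0855 and 0.121 in Y353C, and at 0.0352, 0.0181 and 0.0263 in Halo-SMCHD1. For both genes the lower Y353C value was above the highest Halo-SMCHD1 value, and for Ercc6l the difference was 1.76 ± 0.38 (limma, adjusted p = 0.0239).

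Chst7, a carbohydrate sulfotransferase, was at 0.0394 and 0.0579 in Y353C, and at 0, 0.00826 and 0.0119 in Halo-SMCHD1 (log2 odds difference 1.93 ± 0.32; limma, adjusted p = 0.00893). Enox2, a cell-surface oxidase, was at 0.0732 and 0.102 against 0.0198, 0.0255 and 0.0359 (1.50 ± 0.31; adjusted p = 0.0202). Mtcp1, a coactivator of AKT kinases, was at 0.0968 and 0.0791 against 0.0238, 0.0424 and 0.0311 (1.31 ± 0.28; adjusted p = 0.0225). Each of these 3 genes remained mostly silent in Y353C, with fractions of at most 0.102.

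Spin4 belongs to the spindlin family of histone methylation readers and had the smallest adjusted p of the 8 genes, but at the lowest fractions. It was at 0.0227 and 0.0333 in Y353C and listed at 0 in all 3 Halo-SMCHD1 libraries, so no fold is given. The difference was 1.95 ± 0.18 on the log2 odds scale (limma, adjusted p = 3.8e-05), a size set by the pseudocount, since it was 4.88 at a pseudocount of 0.001 and 0.68 at 0.05. Spin4 was also listed at 0 in both libraries of the SMCHD1 KO line, both of the LRIF1 KO line and all 3 of the G137E line at day 7. Those groups have no spread and enter the pooled estimate behind this standard error. In Halo-SMCHD1 at day 5 the gene was at 0.0556 and 0.05, above the Y353C values at day 7. The reads behind these low fractions are unknown and may be very few, so depth could not be set apart from the line.

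**Figure D2:**
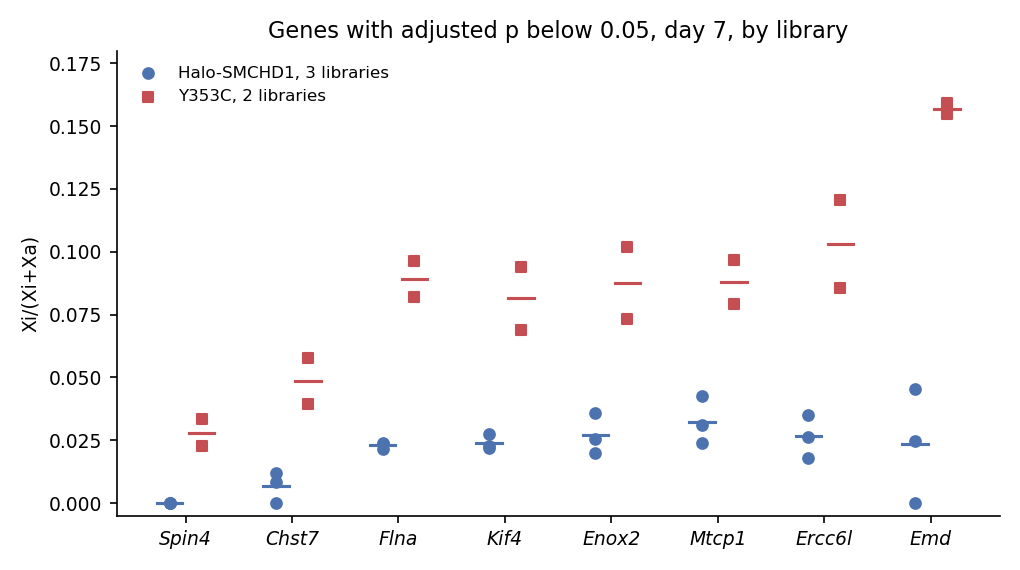
Xi/(Xi+Xa) of the 8 genes called by limma at an adjusted p under 0.05, in each day 7 library (circles, Halo-SMCHD1; squares, Y353C) with group means as bars. The lines do not overlap for any of the 8 genes; Emd has the highest Y353C values, 0.159 and 0.155, and Spin4 the lowest, 0.0227 and 0.0333.

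The calls rest on all libraries and on the pooled spread. Without Y353C replicate 2 only Spin4 was called, without Y353C replicate 1 only Spin4, Chst7 and Kif4, and without Halo-SMCHD1 replicate 1 there were 5 genes, while 14 were called without Halo-SMCHD1 replicate 3. The sizes on the log2 odds scale depend on the pseudocount. At 0.001 the differences of the 8 genes ranged from 1.53 (Mtcp1) to 4.88 (Spin4), with 4.11 for Emd and 3.37 for Chst7. At 0.05 they ranged from 0.68 (Spin4) to 1.75 (Emd), with 0.86 for Chst7. At a pseudocount of 0.001 Emd and Chst7, each with a Halo-SMCHD1 value of 0, were no longer called (limma, adjusted p = 0.158 and 0.0634). With only the 5 libraries in the fit no gene was called, and 44 had an unadjusted p under 0.05. Centring each library on its own median log2 odds moved the median difference from 0.52 to -0.12, a shift of 0.64, and left no gene called higher (0%) or lower (0%). At an unadjusted p under 0.05 this centred fit had 9 genes higher and 14 lower.

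Sequences upstream of the start sites are shown for Flna and Emd, the neighbouring pair, for Spin4 and for Kif4, since SMCHD1 is known for its part in CpG island methylation on the Xi. Each is the 150 bases before the RefSeq start site (GRCm38.p6), 5′ to 3′ on the strand of the gene, with every CG in capitals. The positions are chrX:74246535-74246684 on the minus strand for Flna, chrX:74254537-74254686 on the plus strand for Emd, chrX:95026683-95026832 on the minus strand for Spin4 and chrX:100625915-100626064 on the plus strand for Kif4. They hold 10, 11, 7 and 16 CG in this order.
Flna: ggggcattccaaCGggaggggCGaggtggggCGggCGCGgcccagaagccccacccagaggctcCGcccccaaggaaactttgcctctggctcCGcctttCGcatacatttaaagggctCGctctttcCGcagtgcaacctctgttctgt
Emd: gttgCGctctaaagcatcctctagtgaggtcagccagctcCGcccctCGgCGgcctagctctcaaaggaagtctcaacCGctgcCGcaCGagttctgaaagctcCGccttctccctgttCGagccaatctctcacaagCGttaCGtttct
Spin4: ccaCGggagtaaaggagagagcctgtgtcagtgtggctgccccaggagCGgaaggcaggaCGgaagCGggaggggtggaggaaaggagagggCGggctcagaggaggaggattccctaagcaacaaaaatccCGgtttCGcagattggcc
Kif4: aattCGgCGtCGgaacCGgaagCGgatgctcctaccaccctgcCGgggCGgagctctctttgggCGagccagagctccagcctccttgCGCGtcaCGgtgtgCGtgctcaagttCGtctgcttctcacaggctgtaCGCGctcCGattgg

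A wider set was defined by the libraries alone. In 105 of 249 genes (42.2%) both Y353C values lay above all 3 Halo-SMCHD1 values, and in 0 genes (0%) both lay below. These 105 genes with libraries apart include the 8 genes above. The distance between the lowest Y353C and the highest Halo-SMCHD1 value was at least 0.01 in 59 of them, at least 0.02 in 38 and at least 0.05 in 10. The difference of means among the 105 ranged from 0.00593 to 0.142, with a median of 0.0358. Their median level was 0.0305 in Halo-SMCHD1 and 0.0769 in Y353C, against 0.0343 and 0.0428 in the other 144 genes, a contrast that the choice of the 105 genes on these same libraries fixes. In 27 of the 105 at least 1 of the 5 libraries was listed at 0, against 74 genes in the whole table. Prickle3, a planar cell polarity gene, was besides Spin4 the only one of them at 0 in all 3 Halo-SMCHD1 libraries, and it was at 0.0769 and 0.0333 in Y353C. After each library was centred on its median log2 odds, the libraries were apart in 29 genes higher and 51 lower.

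**Figure D3:**
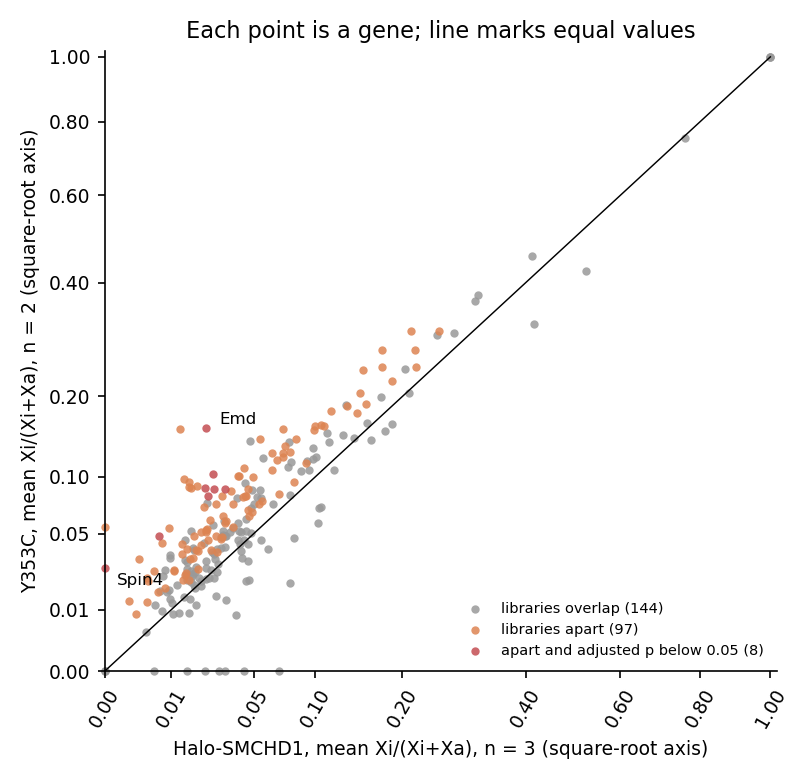
Mean Xi/(Xi+Xa) per gene in Y353C (n = 2) against Halo-SMCHD1 (n = 3), both on square-root axes, with the line of equal values; colours mark genes whose libraries overlap (144), are apart (97) or are apart with an adjusted p under 0.05 (8). Most points lie above the line, 201 of 249.

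The 10 largest differences of means among the genes with libraries apart included those of Nudt10, Emd, Nkap, Rbmx2, Idh3g, Pim2, Araf, Slc6a8 and Ercc6l. Nudt10, a Nudix hydrolase of inositol pyrophosphates, was at 0.15 and 0.16 in Y353C, and at 0, 0.0385 and 0 in Halo-SMCHD1. Its difference of 3.51 ± 1.46 log2 odds did not pass the test (limma, adjusted p = 0.198), and was 5.74 at a pseudocount of 0.001 and 1.97 at 0.05. Araf, a RAF kinase, was at 0.134 and 0.177 against 0.0703, 0.0619 and 0.0828, a difference of 1.15 ± 0.29 that narrowly missed the threshold (limma, adjusted p = 0.0539). Araf passed at a pseudocount of 0.05, among genes with no value of 0 and with robust and trended moderation (limma, adjusted p = 0.0364, 0.0385 and 0.0413). It also passed after division by 2 times the uninduced fraction and without Halo-SMCHD1 replicate 3 (limma, adjusted p = 0.0107 and 0.0472). In the other alternatives of the closing section it did not pass. Pim2, a serine/threonine kinase, was at 0.14 and 0.145 against 0.0571, 0.0625 and 0.0441. Idh3g, a subunit of the mitochondrial NAD-dependent isocitrate dehydrogenase, was at 0.223 and 0.258 against 0.167, 0.129 and 0.157. Both Idh3g and Pim2 separated cleanly by library, yet neither was called (limma, adjusted p = 0.194 and 0.311).

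Nkap, a transcriptional regulator, was at 0.234 and 0.312 in Y353C and at 0.156, 0.186 and 0.177 in Halo-SMCHD1. Rbmx2, an RNA-binding splicing factor, was at 0.29 and 0.325 against 0.171, 0.205 and 0.259. These 2 genes were already incompletely silenced in the parental line, and in Y353C every value was higher still, but neither was called (limma, adjusted p = 0.154 and 0.265). Slc6a8, the creatine transporter, was at 0.0943 and 0.0946 against 0.00935, 0 and 0.0392. Slc6a8 was near silence in Halo-SMCHD1, and its difference of 2.42 ± 0.80 log2 odds did not pass the test (limma, adjusted p = 0.154). That difference was 3.796 at a pseudocount of 0.001 and 1.28 at 0.05. Slc6a8 passed with replicate number as a block and without Halo-SMCHD1 replicate 3 (limma, adjusted p = 0.0183 and 0.0472), but in no other alternative of the closing section.

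No gene lay lower in both Y353C libraries than in all Halo-SMCHD1 libraries. The 5 most negative differences of means were those of Pnma5, Pin4, Zfp300, Dnase1l1 and Timp1. Pnma5, of the paraneoplastic antigen family, was at 0.4 and 0.45 in Y353C against 0.667, 0.333 and 0.571. Pin4, a peptidyl-prolyl isomerase, was at 0.239 and 0.4 against 0.486, 0.388 and 0.373. Zfp300, a zinc finger gene, was at 0 in both Y353C libraries, and at 0, 0.087 and 0.118 in Halo-SMCHD1. For each of these 3 genes the ranges of the lines overlapped, and their smallest adjusted p in limma was 0.423. Dnase1l1, a DNase I-like gene, was at 0.0417 and 0 against 0, 0.143 and 0.0909, which also overlap. Timp1, an inhibitor of metalloproteases, was at 0.0606 and 0.0556 against 0, 0.0769 and 0.231. It had a negative difference of fractions (-0.0445) but a positive one of log2 odds (0.12 ± 1.50).

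A few genes had high fractions in both lines. Xist, the RNA that coats the Xi, was at 0.999 and 0.998 in Y353C and at 0.999, 0.999 and 0.998 in Halo-SMCHD1. Tsix, the antisense partner of Xist, varied widely within each line, with 0.659 and 0.0904 against 0.186, 0.647 and 0.111. Reads of Xist and Tsix were separated by strand in the counting. Ube2a, an E2 ubiquitin-conjugating enzyme, was at 1 in all 5 libraries, and C330007P06Rik was at 0.997 and 1 against 1, 0.996 and 1. Both were also near 1 before induction, with Ube2a at 1 in both lines and C330007P06Rik at 0.998 in Y353C and 1 in Halo-SMCHD1. Dynlt3, a dynein light chain, was at 0.794 and 0.712 against 0.778, 0.794 and 0.706 at day 7, and at 0.904 and 0.869 in the uninduced Y353C and Halo-SMCHD1 libraries.

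Genes grouped by function were read against the whole table, in which 42.2% of genes had libraries apart, 3.21% were called higher and the median log2 odds difference was 0.52. The chromosome segregation and DNA replication group had 5 measured genes, of which 4 had libraries apart and 2 were called, Kif4 and Ercc6l. Its median log2 odds difference was 1.33. Haus7, a subunit of the augmin complex of the spindle, was at 0.0775 and 0.0698 in Y353C against 0.0123, 0.0217 and 0.05. Pola1, the catalytic subunit of DNA polymerase alpha, was at 0.0256 and 0.0293 against 0.017, 0.0205 and 0.022. Stag2, a cohesin subunit and the remaining member, was at 0.0601 and 0.044 against 0.0417, 0.041 and 0.0519, and its lines overlapped.

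In the cytoskeleton, nuclear envelope and membrane traffic group 13 of 22 measured genes had libraries apart and 2 were called, Flna and Emd, with a group median of 0.75 log2 odds. Ssr4, of the translocon-associated protein complex, was at 0.253 and 0.237 in Y353C and at 0.0779, 0.213 and 0.229 in Halo-SMCHD1, where replicate 1 lay far below the others. Among the signalling kinases and small GTPase pathways 5 of 11 genes had libraries apart and 0 were called, with a group median of 1.19. Arhgap4, a GTPase-activating protein, was at 0.105 and 0.174 against 0, 0.0625 and 0.167, which overlap.

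Among the chromatin and transcription regulators 11 of 28 had libraries apart, close to the share in the whole table, and 1 was called, Spin4. The group median of 0.49 was likewise near that of all genes. Ogt, the O-GlcNAc transferase, was at 0.181 and 0.179 in Y353C and at 0.106, 0.111 and 0.128 in Halo-SMCHD1. Its log2 odds difference was 0.71 ± 0.21 (limma, adjusted p = 0.121). Ogt passed at a pseudocount of 0.05 and in untransformed fractions (limma, adjusted p = 0.0405 and 0.0259), but in no other alternative of the closing section. Naa10, an N-terminal acetyltransferase, was at 0.0841 and 0.156 against 0.0392, 0.0156 and 0.114. The RNA processing, ribosome and translation group had 9 of 20 genes apart, with a median of 0.49. Pqbp1, a splicing-related protein, was at 0.115 and 0.167 against 0, 0.143 and 0, and so overlapped through a lone Halo-SMCHD1 library.

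The ubiquitin and proteolysis group had 6 of 9 genes apart with a median of 0.58, and mitochondria and metabolism had 9 of 21 with a median of 0.64. None of these genes was called. Otud5, a deubiquitinase, was at 0.164 and 0.158 in Y353C against 0.103, 0.0813 and 0.132. Brcc3, a deubiquitinase specific for K63 chains, was at 0.103 and 0.097 against 0.0355, 0.0496 and 0.0646. Cul4b, a cullin scaffold, was at 0.121 and 0.098 against 0, 0.0377 and 0.0943, with a narrow gap between lines. Taz, tafazzin of cardiolipin remodelling, was at 0.107 and 0.075 against 0, 0.0392 and 0.0189. Each of these 4 genes had its libraries apart.

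Of 16 listed genes known to escape X inactivation in mouse, that is, to keep some transcription from the Xi, 7 were in the table. Their median fraction was 0.205 in Y353C and 0.147 in Halo-SMCHD1, against 0.052 and 0.0325 over all genes, but Shroom4, 1 of the 7, was below both of the latter with means of 0.0463 and 0.0305. The libraries were apart in 6 of the 7, against 42.2% of all genes, and 0 were called. Kdm6a, an H3K27 demethylase, was at 0.324 and 0.29 in Y353C against 0.232, 0.257 and 0.27. Ddx3x, an RNA helicase, was at 0.208 and 0.203 against 0.116, 0.162 and 0.162. Utp14a, of the small-subunit processome, was at 0.237 and 0.311 against 0.224, 0.205 and 0.224. All 7 genes were higher in Y353C as deposited, with a median difference of 0.38 log2 odds, but all 7 lay below the shift of the chromosome after centring, with a median of -0.27. So did 146 of all 249 genes, with a median of -0.12, and among the 62 genes with the highest fractions in Halo-SMCHD1 at day 5 the centred median was -0.30. In the X-inactivation centre 3 genes were measured, Xist, Tsix and Chic1, and 0 had libraries apart. Chic1 was at 0.0451 and 0.0581 against 0.0203, 0.0436 and 0.0621.

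Genes with libraries apart were spread along the measured X chromosome, which in this table runs from position 6047507 to 103484957 (mm10) and ends at Tsix and Xist. In 20 Mb segments from the centromere side the counts were 22 of 50, 12 of 33, 19 of 44, 30 of 64, 12 of 33 and 10 of 25, where the last segment holds the genes up to Xist. The shares thus ranged from 36.4% to 46.9%, around the 42.2% of the table. The median difference of fractions per segment ranged from 0.0115 to 0.0246. The median distance from the 5′ end of Xist was 44.3 Mb for the genes with libraries apart and 46.0 Mb for the others. Across the 249 genes, which share the same libraries and are not independent, Spearman's correlation of the difference of fractions with the start position was -0.0539.

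**Figure D4:**
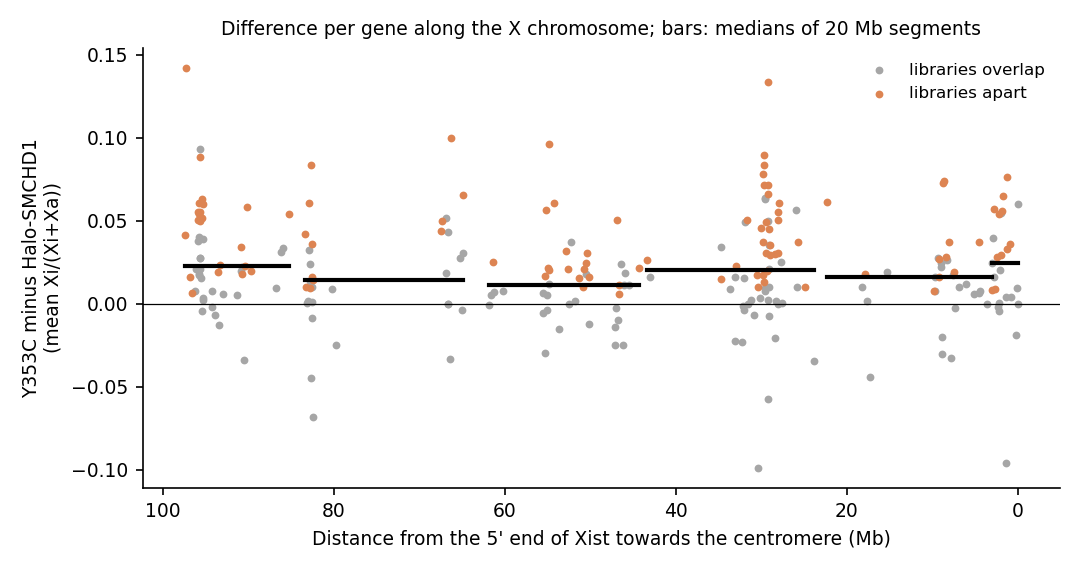
Difference of mean Xi/(Xi+Xa), Y353C minus Halo-SMCHD1, of each gene against its distance in Mb from the 5′ end of Xist; orange points have libraries apart and black bars are medians of 20 Mb segments. All 6 segment medians lie above 0, between 0.0115 and 0.0246.

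In table order, where 42.2% of all genes had libraries apart, the 105 genes fell into 27 single genes, 13 pairs, 9 runs of 3 genes, 3 runs of 4 and 1 run each of 5 and 8. No test was made of whether this departs from chance. The longest held 8 consecutive genes of the table, among them Haus7, Dusp9, Slc6a8, Bcap31, Idh3g and Ssr4, and ended with Pdzd4. Dusp9, a MAP kinase phosphatase, had the lowest levels of the run in Y353C, with 0.0251 and 0.0179 in Y353C against 0, 0.0073 and 0.00568. Bcap31, an endoplasmic reticulum protein, was at 0.0697 and 0.0786 against 0.03, 0.0389 and 0.0423. Pdzd4, a PDZ domain gene, was at 0.0313 and 0.0462 against 0.0202, 0.0282 and 0.0283. None of the 8 genes was called, and their levels in Halo-SMCHD1 ranged widely, from near 0 to those of Idh3g and Ssr4. The next longest run held 5 genes and ended with Flna and Emd, both of which were called. Genes starting between 73 and 75 Mb, a window chosen after the values were seen, numbered 31, and 17 of them (54.8%) had libraries apart, against 42.2% of all genes. Their median log2 odds difference was 0.90, against 0.52 over all genes, and 0.26 after centring.

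Length, the column of the table that gives the size of each gene, did not separate the genes with libraries apart from the others. It equals the deposited span from start to stop, introns included, in 235 genes, and is larger than that span in the other 14, Araf among them. Its median was 27233 bases for the genes with libraries apart and 25477 for the others. By quartiles of Length the counts were 24 of 63 for genes up to 10315 bases, 27 of 62 up to 25967, 32 of 62 up to 69056 and 22 of 62 above. The difference of fractions was smaller in the longest genes, with medians of 0.0225, 0.0253, 0.0179 and 0.00952 from short to long. The levels themselves were also lowest in the longest quartile, with a median of 0.0233 in Halo-SMCHD1 and 0.0309 in Y353C, against 0.0403 and 0.0741 in the shortest. On the log2 odds scale the medians were 0.73, 0.57, 0.52 and 0.43. Across genes, Spearman's correlation with Length was -0.206 for the difference of fractions and -0.151 for the difference in log2 odds, and the former was -0.112 without Y353C replicate 2.

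**Figure D5:**
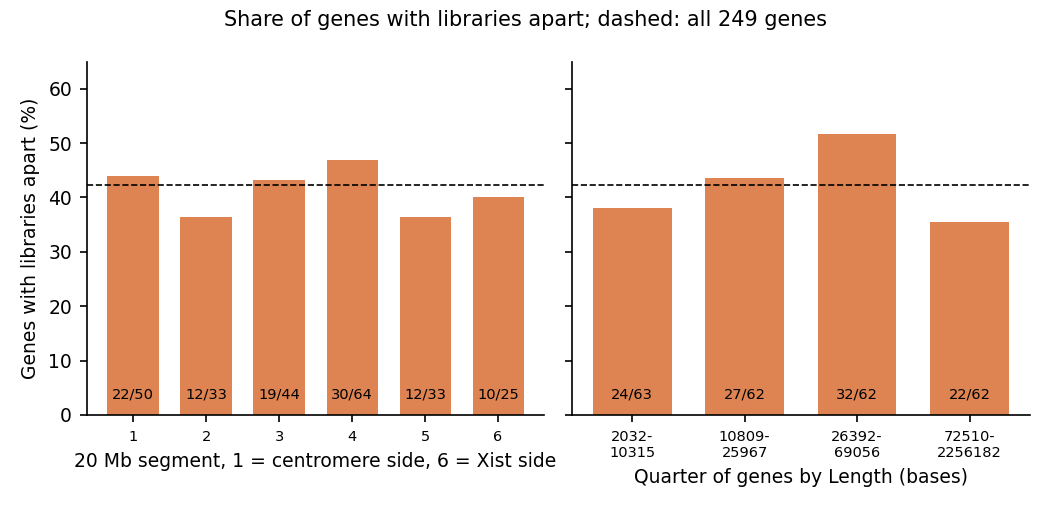
Share of genes with libraries apart (bars, percent, with counts) in 6 segments of 20 Mb from the centromere side to Xist and in 4 quartiles of Length, with the 42.2% of all genes as a dashed line. The segments range from 36.4% to 46.9% and the quartiles from 35.5% to 51.6%.

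How far a gene was silenced in Halo-SMCHD1 at day 5, in libraries outside the comparison, related to the size of the difference but little to the share apart. From the lowest to the highest quartile of the day 5 fraction, 25 of 63, 27 of 62, 25 of 62 and 28 of 62 genes had libraries apart. The median difference of fractions was 0.00994, 0.0182, 0.0207 and 0.0341 in this order. On the log2 odds scale it was 0.47, 0.66, 0.54 and 0.35, so the order depended on the scale. The Y353C values at day 7 were both below the day 5 values of Halo-SMCHD1 in 80 genes and both above them in 40.

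Before induction the medians of the lines were close, and after 24 h with dox the Y353C median was the higher. In the uninduced libraries the median over genes was 0.52 in Y353C and 0.518 in Halo-SMCHD1, with a median difference of -0.000391, although 29 genes differed by more than 0.1 in either direction. After 24 h the medians were 0.273 and 0.237, and 163 of 249 genes were higher in Y353C, with a median difference of 0.0192. Among the 105 genes with libraries apart at day 7, 72 were higher at 24 h, with a median difference of 0.0208. With 1 library per line at these times there is no replicate check, and the share of 68.6% among the 105 was near the 65.5% of all genes.

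Promoters were matched to RefSeq for 206 of the 249 genes (82.7%), 83 with libraries apart and 123 others. In windows from 250 bases before to 50 after the start site, the letters CG, which read the same on both strands, occurred a median of 19 times in the genes with libraries apart and 16 times in the others. The ratio of observed to expected CG exceeded 0.6 in 57 of the 83 (68.7%) and in 69 of the 123 (56.1%), against 35.8% of all 32851 promoters in the RefSeq table. Among the 7 called genes with a matched promoter, all but Ercc6l, Kif4 had the highest ratio, 0.967, and Enox2 the lowest, 0.219. These counts describe the sequence and carry no test.

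E147A, the other substitution, was compared with Y353C directly. In the same limma fit 1 of 249 genes (0.402%) was called, and 11 had an unadjusted p under 0.05. The called gene was Spin4, which was at 0.0625 and 0.0714 in E147A and lower in Y353C by 1.09 log2 odds (limma, adjusted p = 0.0323). Its fractions are low in both lines, with unknown read counts. The median of the log2 odds difference over genes was -0.27, that is, lower in Y353C. It was -0.71 without E147A replicate 1 and 0.02 without the E147A library that has no matched replicate number, and in either case 0 genes were called, with 44 and 9 genes at an unadjusted p under 0.05. Without Y353C replicate 1 the called gene was Ppp1r3f in place of Spin4, and with Y353C, E147A and Halo-SMCHD1 at day 7 alone in the fit it was Prrg3. The E147A medians over genes were 0.0526 and 0.101. Of the Y353C medians, 0.0513 lay just below both and 0.0571 lay between them. For Flna the E147A values were 0.114 and 0.0961, and for Kif4 0.122 and 0.103, close to or above those of Y353C. Emd was at 0.167 and 0.0685 in E147A, on both sides of the Y353C values. A missed threshold does not show that the substitutions act alike.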

How the data were processed

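The authors removed rRNA reads with Bowtie2, mapped what remained with STAR (mm10, SNP positions masked), split unique alignments into Cast and 129S with SNPsplit and counted them over genes, introns included and by strand, with featureCounts. The authors kept a gene only where 10 or more of its reads covered a SNP, a threshold stated across the samples compared. The deposited unit is the fraction Xi/(Xi+Xa) per gene and library, with no read counts and no normalization between libraries, so no counting error is given. Of the columns, 28 were used, of which 1 (E147A, day 7) could be matched to its group but not to a numbered sample, and 2 were not used. Deposited starts count from 0 and were shifted to count from 1.

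Fractions were tested with limma (version 3.58.1, R 4.3.3) on log2((r + 0.01)/(1 - r + 0.01)), in a group-means fit of the 18 libraries of Halo-SMCHD1, Y353C, E147A, G137E, SMCHD1 KO and LRIF1 KO at days 5 and 7, with Benjamini-Hochberg adjustment over 249 genes and a threshold of 0.05. In data simulated for this comparison, 200 of 1000 genes were changed by 3 log2 odds. Of the changed genes 84.6% were recovered, and 3.83% of calls were false. The called differences here were all smaller than that change, and recovery at their size was not simulated. The simulated spread was independent between genes and held no shift common to a whole library. The 3.83% therefore does not cover such shifts, which the Halo-SMCHD1 replicates show. Library means and medians were compared by exact permutation (scipy). Per the study, replicates are independent repeats with 1 clone, so p-values measure the spread between these and not between clones. Named genes were Xist, Tsix, the called genes, the 10 largest differences with libraries apart, the 5 most negative, those above 0.5 in Halo-SMCHD1, the longest run and up to 3 of each list; Prickle3, Pola1, Stag2, Shroom4, Ppp1r3f and Prrg3 were named after their values were seen. Some genes that meet these rules are not reported here. Members and lists were chosen with earlier results of these data known. Alternatives are given in the closing section.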

Additional observations from a re-analysis of the deposited data

Results flagged for a closer look

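Spin4 differed between the Y353C and E147A lines in a test of the difference itself. At day 7 its log2 odds were lower in Y353C by 1.09 ± 0.20 (SE; limma, adjusted p = 0.0323), a value of -1.09 for Y353C minus E147A, with both Y353C libraries (0.0227 and 0.0333) below both E147A libraries (0.0625 and 0.0714). The call was lost without E147A replicate 1, without the E147A library that has no matched number, without Y353C replicate 1, and in a fit of Y353C, E147A and Halo-SMCHD1 at day 7 alone; of the 5 alternatives tried it was kept in 1, without Y353C replicate 2. The gene was listed at 0 in the 3 Halo-SMCHD1 libraries.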

How the results depend on the processing

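The 8 genes called higher became 0 when the fit held just these 5 libraries and 0 with each library centred on its median, an alternative chosen after seeing the data, and ranged from 1 to 14 when a library was left out. No called gene turned direction in any of these fits. The count of genes with libraries apart, 105, was 59 at a gap of at least 0.01, 38 at a gap of at least 0.02 and 29 after centring, with 51 lower. Per-gene deviations of same-numbered libraries were hardly correlated (-0.00311 and 0.0240). Such a correlation leaves out any shift common to all genes of a library, so it cannot show whether same-numbered libraries share such a shift. From replicate 1 to 2 the day 7 median rose in Halo-SMCHD1, Y353C, SMCHD1 KO and LRIF1 KO, but not in G137E (0.0301 and 0.0299). A batch behind the replicate numbers was not tested. With the replicate block 10 genes were called, and 164 genes were higher in both numbered pairs, with 4 lower. The other alternatives (pseudocounts of 0.001 and 0.05, untransformed fractions, genes from 0.25 to 0.75 uninduced, genes with no value of 0, robust and trended moderation, and division by 2 times the uninduced fraction) gave 6 to 12 calls higher and 0 lower; of the 8 genes, Emd and Chst7 were lost at a pseudocount of 0.001 and Ercc6l in untransformed fractions (adjusted p = 0.0736). Some genes outside the 8 gained a call. Araf, Taf1 and Ogt did so at a pseudocount of 0.05, and Taf1 and Ogt in untransformed fractions. Araf and Taf1 did so in genes with no value of 0, and Araf with robust and trended moderation. Division by the uninduced fraction added Araf, Nkap, Fgf13 and Taf1, and the replicate block Dock11 and Slc6a8. Leaving out Halo-SMCHD1 replicate 2 added Pqbp1, and leaving out replicate 3 added Efhc2, Araf, Kis2, Haus7, Slc6a8 and Taf1. The median difference over genes ranged from 0.012 to 0.0197 when a library was left out. The 1 gene called between Y353C and E147A fell to 0 when either E147A library was left out, a range of 0 to 1, and was a different gene without Y353C replicate 1 (Ppp1r3f) and in a fit of 3 lines at day 7 (Prrg3). Centring takes the same 0.64 from the log2 odds difference of every gene, and left 103 of the 249 genes higher and 146 lower. Of the genes named here, some that were never called changed sign. Centring gave Chic1 -0.31, Ddx3x -0.069, Kdm6a -0.27, Pdzd4 -0.18, Timp1 -0.52, Tsix -0.41 and Utp14a -0.23 log2 odds. Division by the uninduced fraction gave C330007P06Rik 0.0048, Timp1 -0.23 and Xist 0.37. Timp1 was -0.24 at a pseudocount of 0.05 and -0.0445 in fractions, and Tsix was -0.20 with the block. Leaving out a library moved C330007P06Rik from -0.26 to 0.15, Chic1 from -0.025 to 0.63, Dynlt3 from -0.36 to 0.26, Timp1 from -1.25 to 1.24, Tsix from -1.83 to 2.301 and Xist from -0.11 to 0.0092. Apart from centring, the cause of these changes was not tested. Comparison with the iXist-ChrX line was not run. The depth behind the fractions is unknown, which limits how low fractions and values listed at 0 can be read.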
